A study of Rosa roxburghii with 15 samples.

Results

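The subject is a set of 285 unigenes of Rosa roxburghii that the RNA-seq files list in young fruit and in no other tissue. A unigene is an assembled transcript cluster that stands for a gene where no genome is used. The members were found among 63727 unigenes by a rule on the measured values, with at least 1 FPKM in each of the 3 young fruit libraries and exactly 0 FPKM in each of the 12 other libraries. They make up 0.447% of all unigenes and 1.41% of the 20235 unigenes with at least 1 FPKM in each young fruit library. FPKM is a fragment count scaled by unigene length and by the aligned fragments of the library. The members were thus chosen by their FPKM in young fruit and their zeros elsewhere, and these values are given as a description and without a test.

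The 15 libraries came from 5 organs or stages of wild R. roxburghii Tratt, 3 from each, all labelled with a normal phenotype. Leaf was mature leaf without petiole, stem was new shoot and flower was in full bloom, all harvested in May. Young fruit was taken 50 days after flowering, in July, and mature fruit 120 days after flowering, in September, so the month cannot be told apart from the tissue and its stage. The methods describe 3 biological replicates of potted seedlings from 1 garden, whereas the labels describe replicates that each pool several plants but a smaller number of them, so part of the spread between libraries may be technical. Each library pools all cell types of its organ. Fewer cells of a type and less RNA per cell therefore cannot be told apart. The files pair the unigenes with no gene names. Defining markers of the tissues could therefore not be checked, and members are described by level, rank and assembly rather than by function.

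The fruit of a rose is a hip, in which a fleshy cup, the hypanthium, encloses the small dry fruits called achenes, each with a seed. Some weeks after flowering such a fruit still expands and builds walls, while embryo and endosperm develop in its seeds, tissues that leaves, stems and open flowers do not hold. In a mature hip growth has ended, and colour, sugars and acids have changed.

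The members were of low abundance. Their mean over the young fruit libraries ranged from 1.09 to 26.9 FPKM with a median of 2.27 FPKM, and 246 of the 285 lay under 5 FPKM. Only 12 members had a mean of 10 FPKM or more, and 2 had 20 FPKM or more. In young fruit libraries 1, 2 and 3 the median member stood at 2.28, 2.26 and 2.03 FPKM and the highest at 25.3, 26.3 and 31.1 FPKM. Summed over all members the level was 908, 968 and 836 FPKM in libraries 1, 2 and 3. That is 0.169%, 0.172% and 0.159% of the FPKM of each library, so the 3 libraries held similar amounts. The plot of levels by rank shows a short steep head and a long flat tail.

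**Figure D1:**
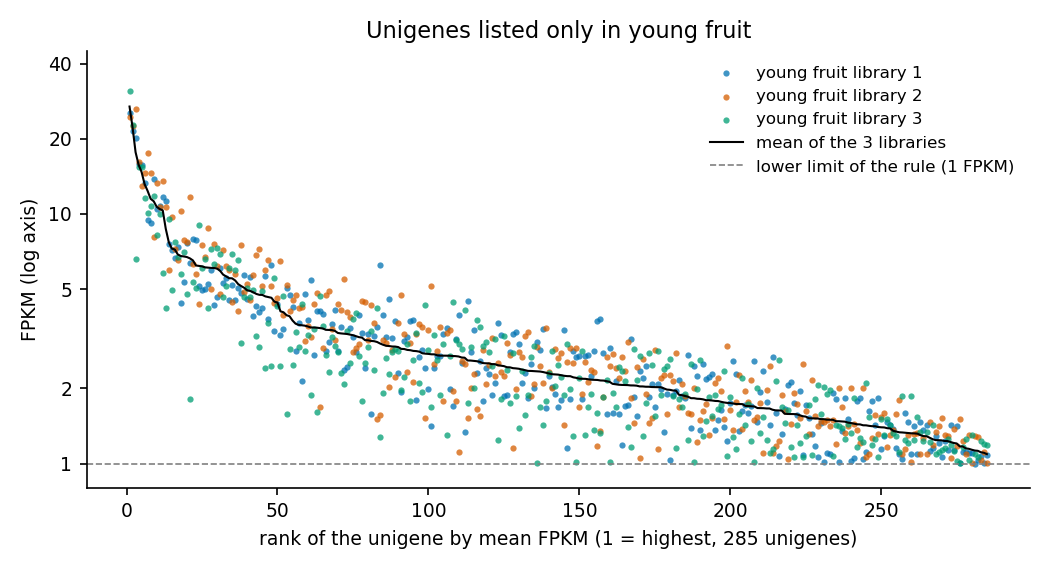
FPKM (log axis) of each of the 285 unigenes in the 3 young fruit libraries (points) and their mean (line), ordered by rank of the mean. All points lie at or above the dashed lower limit of 1 FPKM, and only 2 unigenes have a mean above 20 FPKM.

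The highest member was DN125306_c0_g1. It had 25.3, 24.4 and 31.1 FPKM in young fruit libraries 1, 2 and 3, a mean of 26.9 ± 3.63 FPKM (SD, n = 3), and 0 in all 12 other libraries. The 3 young fruit values lay close together, and 81.6% of the unigenes with at least 1 FPKM in young fruit had a lower mean. DN131612_c0_g1 followed with 21.6, 22.5 and 22.6 FPKM, a mean of 22.2 ± 0.575 FPKM. Both share their assembly component with a second, lower member, the members of rank 5 and 8. The member of rank 5 had 15.7, 12.97 and 15.4 FPKM, and the member of rank 8 had 9.17, 14.6 and 10.7 FPKM. The member of rank 3 was much less even, with 20.1 and 26.3 FPKM in libraries 1 and 2 and 6.60 FPKM in library 3, whereas that of rank 4 had 15.8, 16.1 and 15.4 FPKM. The first 10 members together held 17.3% of the summed mean level of all 285.

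A larger share of the members than of other unigenes varied by over 2-fold between the young fruit libraries. Such variation was not particular to young fruit, since sets found by the same rule in each other tissue varied more often, as given below. The share over all unigenes was not taken in those tissues. The highest library exceeded the lowest by more than 2-fold in 72 members, or 25.3%, against 7.77% of the 20235 unigenes with at least 1 FPKM in each young fruit library. The median of this fold was 1.61 in the members and 1.30 in those unigenes. The difference was seen in the bands of mean level below 20 FPKM. From 2 to 5 FPKM, 36.7% of 139 members and 15.6% of the other unigenes exceeded 2-fold, and from 5 to 10 FPKM, 22.2% of 27 members and 7.69% of the others did. In the lowest band, from 1 to 2 FPKM, the shares were closer, with 12.1% of 107 members and 9.14% of the others. Members and others alike had to reach 1 FPKM in each library, and the part of this limit in the closer shares was not tested. From 20 to 50 FPKM neither of the 2 members exceeded 2-fold, against 1.68% of the others, and their median SD of log2 FPKM was 0.11 against 0.14. The lengths of the unigenes are not in the files used here, and their part in this spread was not tested.

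**Figure D2:**
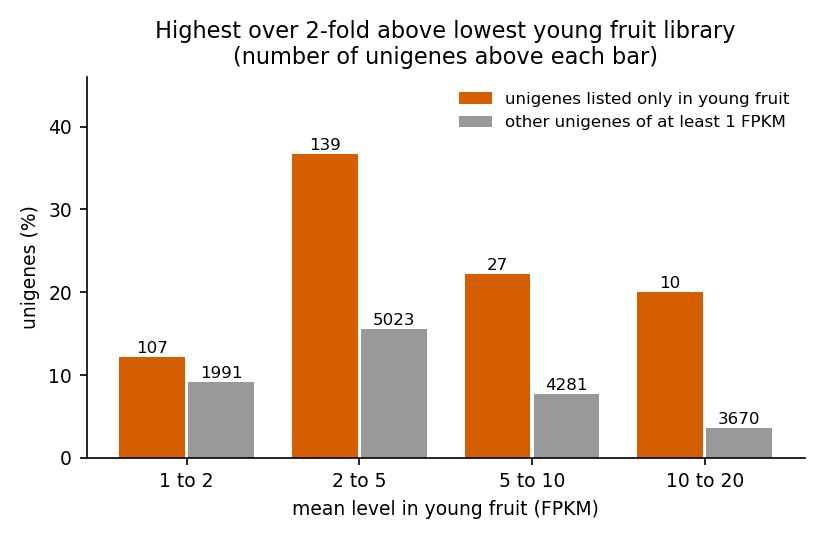
Share of unigenes (%) whose highest young fruit library exceeded the lowest by more than 2-fold, for the unigenes listed only in young fruit and for other unigenes with at least 1 FPKM in each young fruit library, in the 4 bands of mean FPKM with at least 10 members; the numbers give the unigenes in each group. The share is higher for the unigenes listed only in young fruit in each band shown, from 12.1% against 9.14% at 1 to 2 FPKM to 20% against 3.54% at 10 to 20 FPKM. The band from 20 to 50 FPKM, with 2 members, is not drawn.

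The library with the highest value differed from member to member. Library 2 was the highest of the 3 for 117 members, library 1 for 93 and library 3 for 75. Among all unigenes with at least 1 FPKM in young fruit the order was another, since library 3 was the highest for 40.3%, library 2 for 32.2% and library 1 for 27.6%. The median log2 ratio of library 2 to library 3 was 0.16 over the members and -0.09 over the other unigenes, and that of library 1 to library 2 was -0.07 and 0.08. These shifts were small beside the spread over members, whose SD of the log2 ratio was 0.60 to 0.67 for the 3 pairs of libraries. Library 3 stood more than 2-fold below both others in 14 members, or 4.91%, against 0.471% of the other unigenes. The same count was 5 for library 2 and 3 for library 1. Only 2 members differed by more than 4-fold. The member of rank 21 had 6.35, 11.7 and 1.82 FPKM in libraries 1, 2 and 3, and the member of rank 84 had 6.23, 1.57 and 1.28 FPKM.

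The lower limit cut through a continuous range of levels. The member closest to the limit from above had 1.0001, 1.29 and 1.09 FPKM, and another low member had 3.07, 2.94 and 1.01 FPKM. The first unigene outside had 0.999, 1.82 and 1.28 FPKM and the fourth 1.71, 2.57 and 0.993 FPKM, with 0 in the other 12 libraries as well. With a lower limit of 0.5 FPKM the rule found 656 unigenes, with 2 FPKM 95, with 5 FPKM 21 and with 10 FPKM 5. A value above 0 in all 3 libraries was enough for 3425 unigenes, so the members are the upper 285 of a much larger group of very low unigenes. That larger group had a median mean level of 0.337 FPKM.

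The same rule was applied with each other tissue in the place of young fruit. Mature fruit gave 154 such unigenes, flower gave 30, stem gave 12 and leaf gave 10. The excess of young fruit over mature fruit lay in the low levels. At a lower limit of 0.5 FPKM there were 656 unigenes for young and 263 for mature fruit, at 2 FPKM 95 and 93, and at 5 FPKM 21 and 25. Unigenes listed only in mature fruit stood higher, with a median mean level of 3.52 FPKM against 2.27 FPKM. The highest mean was 28.6 FPKM in the mature fruit set, 28.6 FPKM in the stem set and 38.1 FPKM in the flower set, all above the 26.9 FPKM of the young fruit set. The median fold between the highest and the lowest library was 1.61 for the young fruit set and 1.73 for the mature fruit set. That fold exceeded 2 in 25.3% of the young fruit set, the lowest share of the 5 tissues. It did so in 34.4% of the mature fruit set and 30% of the flower set, and in 50% and 60% of the small stem and leaf sets. In mature fruit, library 1 was the highest for 82 of the 154, whereas in young fruit no library was the highest for more than 117 of 285.

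**Figure D3:**
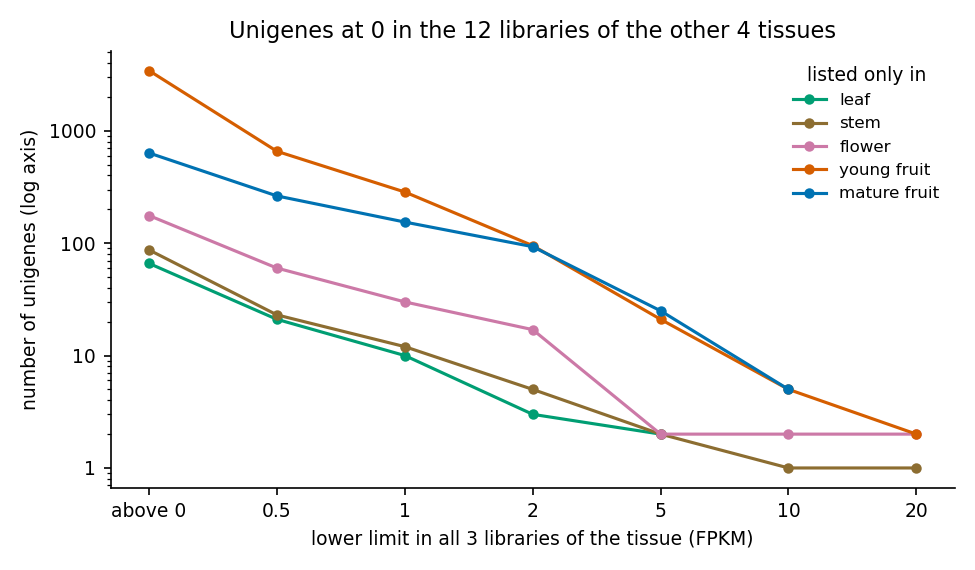
Number of unigenes (log axis) at 0 FPKM in the 12 libraries of the other tissues, by the lower limit (FPKM) asked of all 3 libraries of the named tissue; counts of 0 are not drawn. The lines of young and mature fruit meet at 2 FPKM, with 95 and 93 unigenes, and young fruit lies above at lower limits.

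Unigenes with this pattern were found again from library to library in young fruit. Of all unigenes at 0 in the 12 other libraries and above 0 in at least 1 young fruit library, 76.4% were above 0 in all 3. This share was 30.3% in flower, 16.0% in mature fruit, 13.6% in stem and 12.9% in leaf. In mature fruit 2792 unigenes were shared by libraries 2 and 3 alone, whereas in young fruit each pair of libraries shared a like number alone, 151, 153 and 174. When 2 young fruit libraries had at least 1 FPKM and the other 12 libraries were at 0, the third young fruit library was listed at 0 in 7 of 345, 12 of 333 and 7 of 386 unigenes for libraries 1, 2 and 3. That is 2.03%, 3.604% and 1.81%, against 0.559%, 0.538% and 0.495% when the other 12 libraries were free. These groups were not matched for level. The files hold no read counts, so a unigene at 0 is one listed with that value and no more. Relative depth can be read from the steps between low values. Against young fruit library 1, the commonest log2 ratio of values under 0.15 FPKM was -0.08 and -0.29 in young fruit libraries 2 and 3 and -0.56 to 0.045 in the 12 other libraries, where a lower ratio means that a read is worth less and the library is deeper. By this indirect measure the depths of the young fruit libraries fell within the range of the others. Of the 12 others, 9 had a lower ratio than young fruit library 1, the young fruit library with the highest ratio. Only leaf library 2 and stem libraries 1 and 2, at -0.305, -0.56 and -0.30, had a lower ratio than young fruit library 3. All flower and mature fruit libraries had a higher ratio than young fruit library 3. Whether depth has a part in the zeros was not tested.

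Most unigenes of young fruit were found everywhere, and exact zeros in every other library were rare. Of the 20235 unigenes with at least 1 FPKM in each young fruit library, 18126, or 89.6%, were above 0 in all 12 other libraries. The share of members fell with the level, from 5.10% of the unigenes with a mean of 1 to 2 FPKM to 2.69% from 2 to 5 FPKM, 0.627% from 5 to 10 FPKM and 0.0644% from 20 to 50 FPKM. None of the 1882 unigenes above 50 FPKM was a member. Counts for 1 to 8 other libraries above 0 lay between 81 and 131, all lower than the 285 members.

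Stem and mature fruit were the tissues in which unigenes just outside the rule were found. In 81 unigenes exactly 1 of the 12 other libraries was above 0. That library was one of stem in 41, with 15, 17 and 9 for stem libraries 1, 2 and 3, and one of mature fruit in 37, with 14, 14 and 9. A leaf library was the exception in 1 unigene and a flower library in 2. The single value outside young fruit ranged from 0.0151 to 4.50 FPKM with a median of 0.163 FPKM, beside a median mean of 2.17 FPKM in young fruit. When all unigenes above 0 in exactly 1 other tissue are counted, that tissue was mature fruit in 147, stem in 88, leaf in 3 and flower in 3. In 80 of the 147 all 3 mature fruit libraries were above 0, against 14 of the 88 for stem. A further 214 unigenes were above 0 in stem and mature fruit but at 0 in leaf and flower.

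**Figure D4:**
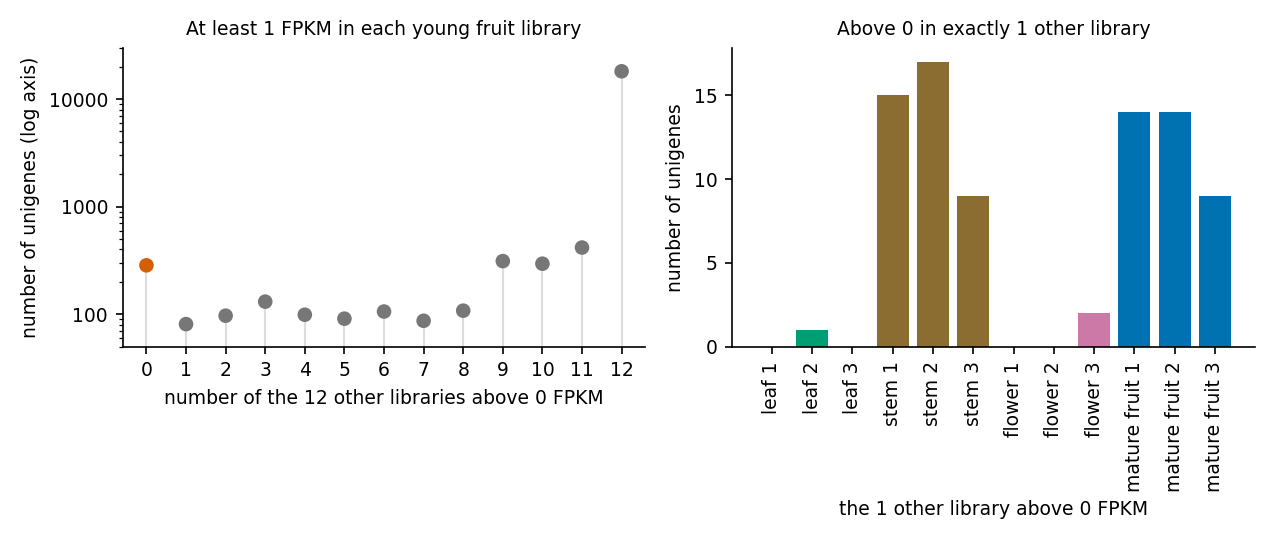
Left, number of unigenes (log axis) with at least 1 FPKM in each young fruit library, by how many of the 12 other libraries are above 0 FPKM; the point at 0 is the set of 285. Right, for the 81 unigenes above 0 in exactly 1 other library, the number by library; stem and mature fruit libraries account for all but 3 of them.

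Trinity, the assembler, joins reads into components and splits each component into unigenes, which may be related genes, alleles or pieces of 1 gene. The 285 members came from 269 components. Of these, 254 held 1 member, 14 held 2 and 1 held 3. Of the members, 162, or 56.8%, were the only unigene of their component, against 45.97% of all unigenes. In the 15 components with several members the highest exceeded the lowest by 1.01-fold to 6.003-fold, with a median of 1.93-fold, and the order was the same in all 3 libraries in 11 of them. Members of 1 component share an origin and are not independent.

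Other unigenes of these components, called component mates below, were not used by the rule. There were 212 mates in 100 components, beside 109 members. Among the mates, 66, or 31.1%, were above 0 in young fruit alone, 46 of them in all 3 young fruit libraries, but they missed the limit of 1 FPKM in at least 1 library. In components without a member that share was 3.96% of 34099 unigenes. Mates above 0 in both fruit stages alone numbered 26, or 12.3%, against 3.17%, and mates above 0 in mature fruit alone numbered 23, or 10.8%, against 2.94%. Of these 23, 10 were at 0 in mature fruit library 1 and above 0 in libraries 2 and 3. Mates above 0 in young fruit and in leaf, stem or flower numbered 70, or 33.0%, against 77.2%. In all, 62 members had a mate above 0 in leaf, stem or flower. Reads of related unigenes may be divided between them, so the value of a mate is not free of that of the member.

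**Figure D5:**
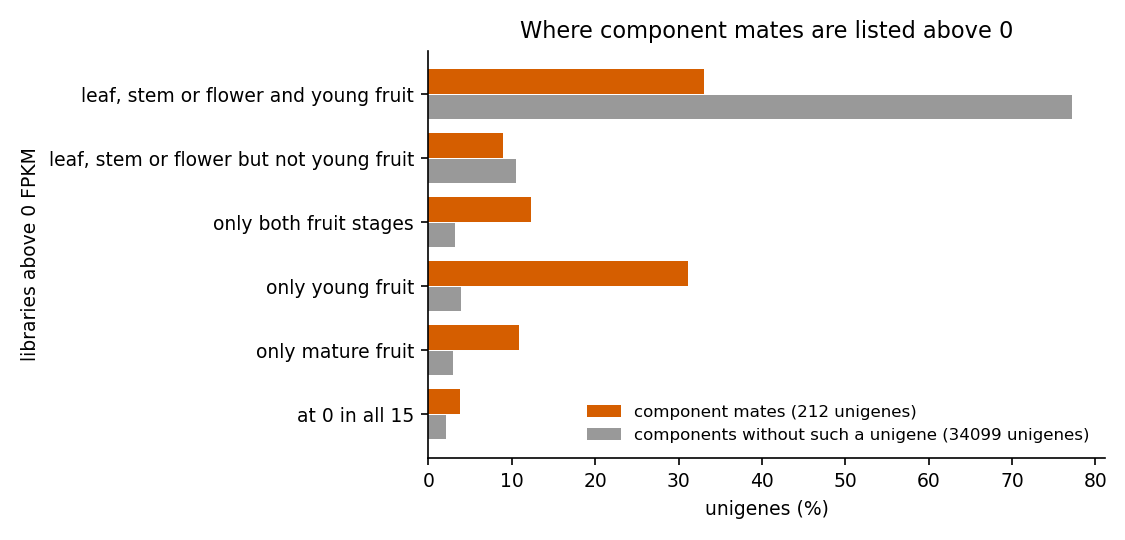
Share of unigenes (%) by the libraries in which they are above 0 FPKM, for the 212 component mates and for the 34099 unigenes of components with several unigenes and no member. Mates above 0 only in young fruit make up 31.1%, against 3.96%, and those in young fruit and in leaf, stem or flower 33.0%, against 77.2%.

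Young fruit was compared with each other tissue in the mates by limma, a linear model with moderated variances, on log2(FPKM + 0.1) over 51175 unigenes, those that exceeded 0.1 FPKM in 3 or more libraries. A mate was called where the Benjamini-Hochberg adjusted p was 0.01 or less and the log2 fold change was 1 or more in size. The model took the 3 libraries of a tissue as independent. Its variances may be too small if some of them are technical repeats. Of the 212 mates, 141 were tested, but 86 of these would not have passed the filter without the young fruit libraries, 72 of them with all 3 young fruit libraries above it. Their calls lean towards young fruit by the choice of unigenes, and 71 to 73 of the 86 were called higher in each comparison. Unigenes in general show the same lean. Higher than in leaf were 13897 of all 51175, but 7825 of the 43658 above the filter in at least 3 other libraries. For stem, flower and mature fruit these counts were 8893 and 3073, 11613 and 5555, and 11316 and 5735. The counts over all 141 are therefore a description. Most of the 51175 unigenes passed without young fruit, whereas 86 of the 141 mates did not, so the percentages below are no matched background. Over all 141, 90 were higher and 6 lower in young fruit than in leaf, where 27.2% of all unigenes tested were higher and 14.7% lower. Against stem 83 were higher and 2 lower, with 17.4% and 10% of all unigenes tested, against flower 89 and 7, with 22.7% and 16.3%, and against mature fruit 86 and 9, with 22.1% and 8.06%. The higher counts fell to 31 to 35 for leaf, 24 to 26 for stem, 27 to 31 for flower and 25 to 31 for mature fruit without any one young fruit library, since mates found there alone then failed the filter. The count lower than in mature fruit was 1 without mature fruit library 2 and 0 without library 3, and the count lower than in stem was 1 without stem library 1 or 3.

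The other 55 mates were above 0.1 FPKM in at least 3 libraries outside young fruit, a filter that the tissue compared can meet by itself. Of these, 18, or 32.7%, were higher and 6 lower in young fruit than in leaf, against 17.9% and 17.2% of the 43658 unigenes that passed in the same way. Mates of 1 component are not independent of each other or of its member. The 43658 unigenes include those alone in their component and were not matched for level, so they are no matched background either. Compared with stem, 12, or 21.8%, were higher and 2 lower, against 7.04% and 11.8%. Compared with flower, 16, or 29.1%, were higher and 7 lower, against 12.7% and 19.1%. Compared with mature fruit, 15, or 27.3%, were higher, against 13.1%, and 9, or 16.4%, lower, against 9.45%. Of these 9, 8 were above 0.1 FPKM only in the 3 mature fruit libraries, through which they passed the filter, so this count is no result about the mates. Among the 27 mates above 0.1 FPKM in at least 3 libraries of leaf, stem and flower, 8, or 29.6%, were higher and 0 lower in young than in mature fruit by limma (4 lower at an unadjusted p under 0.05), against 13.6% and 6.62% of the 40214 unigenes that passed in that way. The median log2 fold change on the log2(FPKM + 0.1) scale over the 55 mates was 0.95 against leaf, 0.41 against stem, 0.52 against flower and 0.05 against mature fruit, beside 0.00, -0.01, -0.20 and 0.00 over the 43658 unigenes. In each comparison most of the 55 were not called, 31 for leaf, 41 for stem, 32 for flower and 31 for mature fruit. Among the 55, the log2 fold changes against mature fruit that were not called ranged from -5.86 to 1.70, so a missing call does not mean a small difference. Without mature fruit library 1, 14 of the 55 were lower in young than in mature fruit. Without stem library 1 or stem library 3, 1 was lower than in stem.

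The mates called with the largest difference in each direction between the fruit stages were unlike each other. DN139911_c0_g1 had 8.00, 11.1 and 7.32 FPKM in young fruit, 0, 0.216 and 0.263 FPKM in stem libraries 1, 2 and 3, and 0 in all libraries of leaf, flower and mature fruit. It passed the filter only through its young fruit values and was picked for its difference, so no test is given. DN149787_c6_g9 was above 0 only in mature fruit, with 38.5, 5.99 and 9.42 FPKM in libraries 1, 2 and 3. It was listed at 0 in young fruit, although its component holds a member that was listed in young fruit alone.

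MYB proteins are transcription factors that bind DNA through a repeated domain, and theirs are the only unigenes named in the sources used here, by their best match in other species. Of the 163 MYBs, 0 were members, where 0.447% of all unigenes are, so that at this share fewer than 1 would be counted among 163. None lay in a component with a member. In young fruit alone 3 MYBs, or 1.84%, were above 0, each in a single library, against 7.03% of all unigenes. DN141656_c0_g2, matched to a putative MYB of Rosa rugosa, had 1.33 FPKM in young fruit library 2, and DN147056_c0_g3, matched to MYB8 of Eriobotrya japonica, had 0.525 FPKM in the same library. DN197272_c0_g1, matched to a MYB306-like protein of Fragaria vesca, had 1.09 FPKM in young fruit library 3. These 3 MYBs were named after their values were seen. Another 3 MYBs matched insect proteins best, and all of them were at 0 in the 3 young fruit libraries. DN133537_c0_g1 and DN125764_c0_g1 were above 0 in mature fruit libraries 2 and 3 alone, at up to 0.354 and 1.07 FPKM. Whether material of another organism has a part in the 285 members was not tested.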

How the data were processed

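RNA-seq of 5 tissues of R. roxburghii was analysed in 15 libraries, grouped by the tissue in their labels. The authors removed low-quality reads, assembled the rest with Trinity, mapped reads back with Bowtie2 and obtained abundances from RSEM. Trimmomatic is also listed in the submitters' processing notes, and no tool version is stated there. The deposited values are FPKM, 1 per unigene and library. They hold no counts, so no counting interval was given. The FPKM of a library summed to between 490161 and 563597.

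The members and lists were chosen with earlier results of these data known. Members were counted and described without a test. Component mates share the DN and c number of a member. They were compared with limma 3.58.1 in R 4.3.3 on log2(FPKM + 0.1), with a variance trend, 1 mean per tissue over 15 libraries and Benjamini-Hochberg adjustment within each comparison. The script was tested on simulated data. Alternatives were other limits, pseudocounts and filters, median-of-ratios scaling, a replicate block, wider components and leaving out libraries. By rule, the text names the 2 highest members and, between the fruit stages, the called mate with the largest and that with the smallest log2 fold change. MYBs were to be named when above 0 in all 3 young fruit libraries and at 0 elsewhere, or in a component with a member, which none met. Tables and figures were made in Python 3.11.15 (numpy 2.4.6, pandas 2.3.3, matplotlib 3.10.9).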

Additional observations from a re-analysis of the deposited data

How the results depend on the processing

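In place of 285 unigenes, the rule found 656, 95 and 21 with lower limits of 0.5, 2 and 5 FPKM. With any value above 0 it found 3425. The count was 363 and 316 when up to 0.1 and 0.05 FPKM were allowed elsewhere, and 275 with median-of-ratios scaling. The median member level was 1.30 and 4.45 FPKM with limits of 0.5 and 2 FPKM. The count was 285 to 386 when each library was left out in turn and 325 without mature fruit libraries 2 and 3, a setting chosen after seeing the data. The median ratios between young fruit libraries kept their direction under the limits of 0.5 and 2 FPKM and under scaling.

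The counts of all tested mates rest on low values. For leaf, stem, flower and mature fruit in that order, 41, 36, 37 and 36 were higher in young fruit with a pseudocount of 1, and 31, 24, 27 and 26 of the 46 mates tested were under a filter of 1 FPKM or more in 3 libraries. When mates were taken from the whole DN number, 261 were tested in place of 141. Of these, 140, 122, 133 and 131 were higher, which are smaller shares than in the main setting, and 19, 14, 27 and 18 were lower. Over the 55 mates that pass outside young fruit, a group chosen after seeing the data, 18, 12, 16 and 15 were higher. Of the 27 that pass in leaf, stem and flower, also chosen after seeing the data, 8 were higher and 0 lower than in mature fruit by limma (4 lower at an unadjusted p under 0.05). When each library was left out in turn, the higher counts were 31 to 91, 24 to 85, 27 to 90 and 25 to 87, and the lower ones 6 to 7, 1 to 2, 6 to 8 and 0 to 11. The low ends of the higher counts are those without a young fruit library, where mates found in young fruit alone fail the filter of 3 libraries by construction (31 to 35, 24 to 26, 27 to 31 and 25 to 31). The mates lower than in stem numbered 1 with a pseudocount of 0.01 and 0 with 1. Those lower than in mature fruit numbered 4 with the filter of at least 1 FPKM and 1 without mature fruit libraries 2 and 3. Over the 55 mates in the same order, leaving out each library gave 16 to 21, 11 to 13, 13 to 17 and 14 to 17 higher and 6 to 7, 1 to 2, 6 to 8 and 8 to 14 lower, with 1 and 0 lower than in stem at a pseudocount of 0.01 and of 1.

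With the replicate number as a block, 90, 83, 88 and 87 mates were higher. Deviations from the tissue means were also correlated across unigenes, over 12 pairs of same-numbered libraries of young fruit and another tissue. The correlation was -0.0097 to 0.0345, and 6 of the 12 correlated best with their own number. With deviations from means of only 3 libraries, these values cannot decide whether same-numbered libraries share plants. No other alternative moved a count by more than 1.5 times, but the shares could change. With a filter of any value above 0 in at least 1 library, 204 mates were tested. Of these, 95, 88, 93 and 90 were higher than in leaf, stem, flower and mature fruit, which are smaller shares than in the main setting.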
